A study of Homo sapiens with 12 samples.

Results

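The aldo-keto reductases described here are 8 genes of the AKR1 family, AKR1A1, AKR1B1, AKR1B10, AKR1C1, AKR1C2, AKR1C3, AKR1C4 and AKR1D1. They were taken by gene symbol from a table of 40825 gene lines, in which each stood on 1 line. RNA was sequenced from the established liver cancer lines Huh7 and PLC/PRF/5, whose genotype label is WT, after exposure to lenvatinib or to DMSO. Lenvatinib blocks the tyrosine kinases of several growth factor receptors, among them those for VEGF and FGF, and is taken by mouth against hepatocellular carcinoma. Each of the 4 groups held 3 libraries, and the sources used here give neither its dose nor how long it lasted. The study asked about lenvatinib resistance linked to syntaxin 6. The labels do not say whether replicates were grown apart, so p-values here reflect only how these libraries vary, and that variation may be technical.

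Aldo-keto reductases are soluble enzymes that use NADPH to reduce aldehydes and ketones to alcohols. In the liver they clear reactive aldehydes, reduce steroid hormones and help to turn cholesterol into bile acids. Several human members, AKR1B10 and the AKR1C enzymes among them, are known targets of NRF2, the transcription factor of the antioxidant response. That factor binds antioxidant response elements and is held down by KEAP1.

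AKR1C1, AKR1C2, AKR1C3 and AKR1C4 lie next to each other on chromosome 10, and their likeness bears on how well short reads can be assigned to one of them. In GRCh38 with GENCODE 29, another build than the hg19 of the submitters' processing notes, AKR1C1 lies at chr10:4963253-4983283 on the plus strand. AKR1C2 follows at chr10:4987400-5018031 on the minus strand, AKR1C3 at chr10:5035354-5107686 and AKR1C4 at chr10:5195462-5218949, both on the plus strand. AKR1B1 (chr7:134442350-134459284, minus), AKR1B10 (chr7:134527592-134541408, plus) and AKR1D1 (chr7:138002324-138117986, plus) share chromosome 7, and AKR1A1 lies at chr1:45550543-45570049 on the plus strand. Exons of other annotated genes overlapped the exons of 0 of the 8. The coding sequences of AKR1C1 and AKR1C2, each 969 bases long, differed at 19 positions and were 98.04% identical. AKR1C1 was 91.4% identical to AKR1C3 and 88.5% to AKR1C4, whereas AKR1B1 and AKR1B10 were 75.8% identical. Within the coding sequence, the longest run that AKR1C1 and AKR1C2 share is 186 bases, the last before the stop codon. The search ended there, so longer shared runs that reach into or lie in untranslated parts were not looked for. It is shown because a read inside it cannot be told to come from one gene or the other. On AKR1C1 it lies on the plus strand between chr10:4972687-4977739 and is split by introns.

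AKR1C1 and AKR1C2, shared run: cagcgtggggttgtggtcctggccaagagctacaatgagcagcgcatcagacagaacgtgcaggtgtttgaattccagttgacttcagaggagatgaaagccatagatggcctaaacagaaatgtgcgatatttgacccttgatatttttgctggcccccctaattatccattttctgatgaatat

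Of the 19 differences between AKR1C1 and AKR1C2, 10 fall in 1 window of 60 bases, coding positions 103 to 162, which lies inside 1 exon of each gene. It is shown as the stretch in which a short read separates them best. Capitals mark positions at which the 4 genes are not all the same. In GRCh38 the window lies at chr10:4965932-4965991 (plus) in AKR1C1, chr10:5001604-5001663 (minus) in AKR1C2, chr10:5096428-5096487 (plus) in AKR1C3 and chr10:5200199-5200258 (plus) in AKR1C4.
AKR1C1: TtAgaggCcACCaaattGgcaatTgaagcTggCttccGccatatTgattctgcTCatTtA
AKR1C2: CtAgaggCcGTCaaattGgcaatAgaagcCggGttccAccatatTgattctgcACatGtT
AKR1C3: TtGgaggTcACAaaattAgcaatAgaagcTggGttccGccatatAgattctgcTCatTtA
AKR1C4: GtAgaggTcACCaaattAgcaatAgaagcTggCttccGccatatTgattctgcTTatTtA

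**Figure D1:**
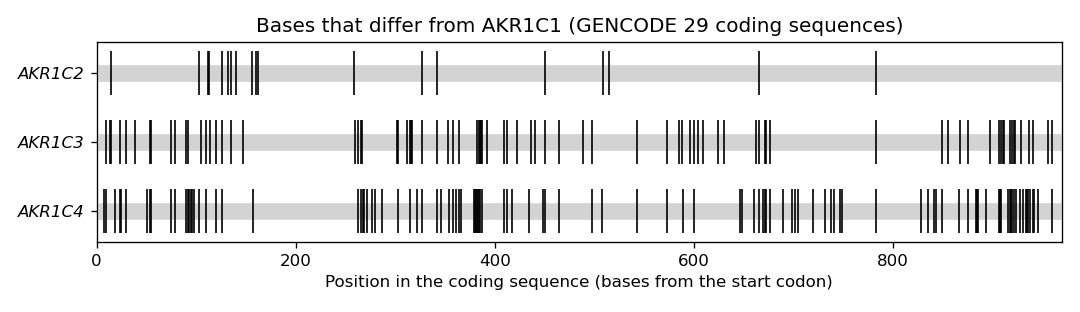
Positions at which the coding sequences of AKR1C2, AKR1C3 and AKR1C4 differ from that of AKR1C1 (black ticks), in bases from the start codon over 969 bases. AKR1C2 has 19 ticks, 10 of them between positions 103 and 162.

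Of the 50-base stretches of the AKR1C1 coding sequence, 54.3% also occur in a transcript of another gene, 51.6% in AKR1C2. The shares were 57.1% for AKR1C2, 23.0% for AKR1C3, 17.6% for AKR1C4, 28.5% for AKR1B10 (mostly AKR1B15 and the pseudogene AKR1B10P1) and 7.23% for AKR1B1. AKR1D1 shared 0.323% and AKR1A1 none of 926. Over the whole transcript, untranslated parts included, the share was 28.7% for AKR1C1 and 52.2% for AKR1C2. The sources used here do not say how reads matching several genes were counted, so the split of counts among AKR1C1, AKR1C2 and AKR1C3 is uncertain, and their sum is given beside the single genes.

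The sequences before the starts of these genes are alike too. RefSeq promoter windows ran from 250 bases before to 50 after the start (build GRCh38.p14). In these, AKR1C1 and AKR1C2 were identical at 288 of 292 aligned bases. Identity was 78.0% between AKR1C1 and AKR1C3 and 70.4% between AKR1C1 and AKR1C4. The AKR1C3 window compared was that of the earlier of its 2 starts, and the window of the later start was not compared. The 120 bases before each start are shown because AKR1C1 and AKR1C2 both rose with lenvatinib in each line, as given below. Whether these sequences have a part in that was not tested. The window of AKR1C1 is chr10:4963295-4963414 (plus), that of AKR1C2 chr10:5003858-5003977 (minus), that of AKR1C3 chr10:5094294-5094413 (plus, the later of its 2 starts) and that of AKR1C4 chr10:5196717-5196836 (plus). Capitals mark a CCAAT box read on the opposite strand and the palindrome GTTAAC, which overlap by 1 base.
AKR1C1: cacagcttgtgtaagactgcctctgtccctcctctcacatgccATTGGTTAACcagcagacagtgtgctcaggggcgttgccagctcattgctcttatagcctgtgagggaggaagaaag
AKR1C2: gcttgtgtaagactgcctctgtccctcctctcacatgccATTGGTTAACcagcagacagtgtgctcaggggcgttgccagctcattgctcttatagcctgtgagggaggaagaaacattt
AKR1C3: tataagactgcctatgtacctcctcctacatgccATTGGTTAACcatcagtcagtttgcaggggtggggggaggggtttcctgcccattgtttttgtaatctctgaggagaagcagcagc
AKR1C4: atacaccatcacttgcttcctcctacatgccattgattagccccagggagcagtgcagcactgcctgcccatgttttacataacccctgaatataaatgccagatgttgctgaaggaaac

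The CCAAT box, that palindrome and an antioxidant response element core were searched on both strands in the 9 member windows and in all 34796 distinct windows, and they were chosen after the member sequences had been looked at. GTTAAC occurred in 4 member windows, those of AKR1C1, AKR1C2 and both starts of AKR1C3, and in 2.63% of all windows. CCAAT occurred in 6 of 9 member windows, those same AKR1C windows and both of AKR1B1, and in 34.6% of all. The AKR1B1 windows overlap and hold the same CCAAT, and the AKR1C windows are alike in sequence. These member windows are therefore not separate cases to set against the shares of all windows. The core of the antioxidant response element, TGACNNNGC, occurred in 0 of the 9 and in 13.3% of all, which says only that these letters are not in these windows.

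The libraries held 70236175 to 75820318 counts, and the members ranged from no count to 10166 counts in a library. Low counts in the table pile up at multiples of 4, which make up 40.9% of the counts from 1 to 16 against 25% if these were spread evenly, so that a low count may not equal that number of reads. All 10 hepatocyte markers had counts in every group, but unevenly. In PLC/PRF/5 with DMSO, albumin (ALB) was at 7.53 CPM (counts scaled to library size with TMM factors) against 2245 in Huh7, and transthyretin (TTR) at 0.333 against 157.5. The apolipoprotein APOB alone gave 4996 CPM of the 6804 to 7372 CPM summed over the markers in that group. Markers of other cell types moved with lenvatinib as well, and their part in the results that follow was not tested. The 6 fibroblast markers summed to 167 to 169 CPM in Huh7 with DMSO and 106 to 122 with lenvatinib, and to 10.9 to 15.3 and 5.52 to 8.86 CPM in PLC/PRF/5. The 4 endothelial markers summed to 3.90 to 4.28 and 4.32 to 4.61 CPM in Huh7 and to 9.30 to 10.9 and 5.35 to 7.48 CPM in PLC/PRF/5, almost all of it PECAM1. The 5 leukocyte markers summed to 7.92 to 8.73 and 8.54 to 11.8 CPM in Huh7 and to 78.1 to 84.1 and 82.0 to 92.1 CPM in PLC/PRF/5, where they were mostly CD68 and LYZ. DCN had no count in Huh7 with DMSO, CD3E none there or in PLC/PRF/5 with lenvatinib, CDH5 none in Huh7 with lenvatinib, and KDR counts only in PLC/PRF/5 with DMSO.

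On the authors' FPKM scale, which divides by gene length, AKR1A1 was the most abundant member in all 4 groups. In Huh7 with DMSO it stood at 26.2 ± 0.746 FPKM (SD, n = 3, as for all values with ± SD below). AKR1B1 at 6.35 ± 0.906 and AKR1C3 at 6.29 ± 0.383 FPKM came next and overlapped. AKR1C2 at 3.62 ± 0.222 and AKR1C1 at 2.26 ± 0.111 FPKM followed, each apart from its neighbours. AKR1C4, AKR1D1 and AKR1B10 lay at 0.171, 0.0878 and 0.0578 FPKM with overlapping ranges. In Huh7 with lenvatinib AKR1C2 stood second, at 16.8 ± 0.925 FPKM, below AKR1A1 and above AKR1C3. In PLC/PRF/5 with DMSO the order began with AKR1A1 at 16.6 ± 0.984 and AKR1B1 at 12.9 ± 2.24 FPKM, which overlapped, and AKR1C1 was at 0.921 ± 0.109 FPKM. The order depends on the gene lengths the authors used: a given FPKM took 2.24 times as many counts for AKR1C1 as for AKR1C3, and 1.65 times as many for AKR1C2. Comparisons between groups of 1 gene do not depend on these lengths.

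**Figure D2:**
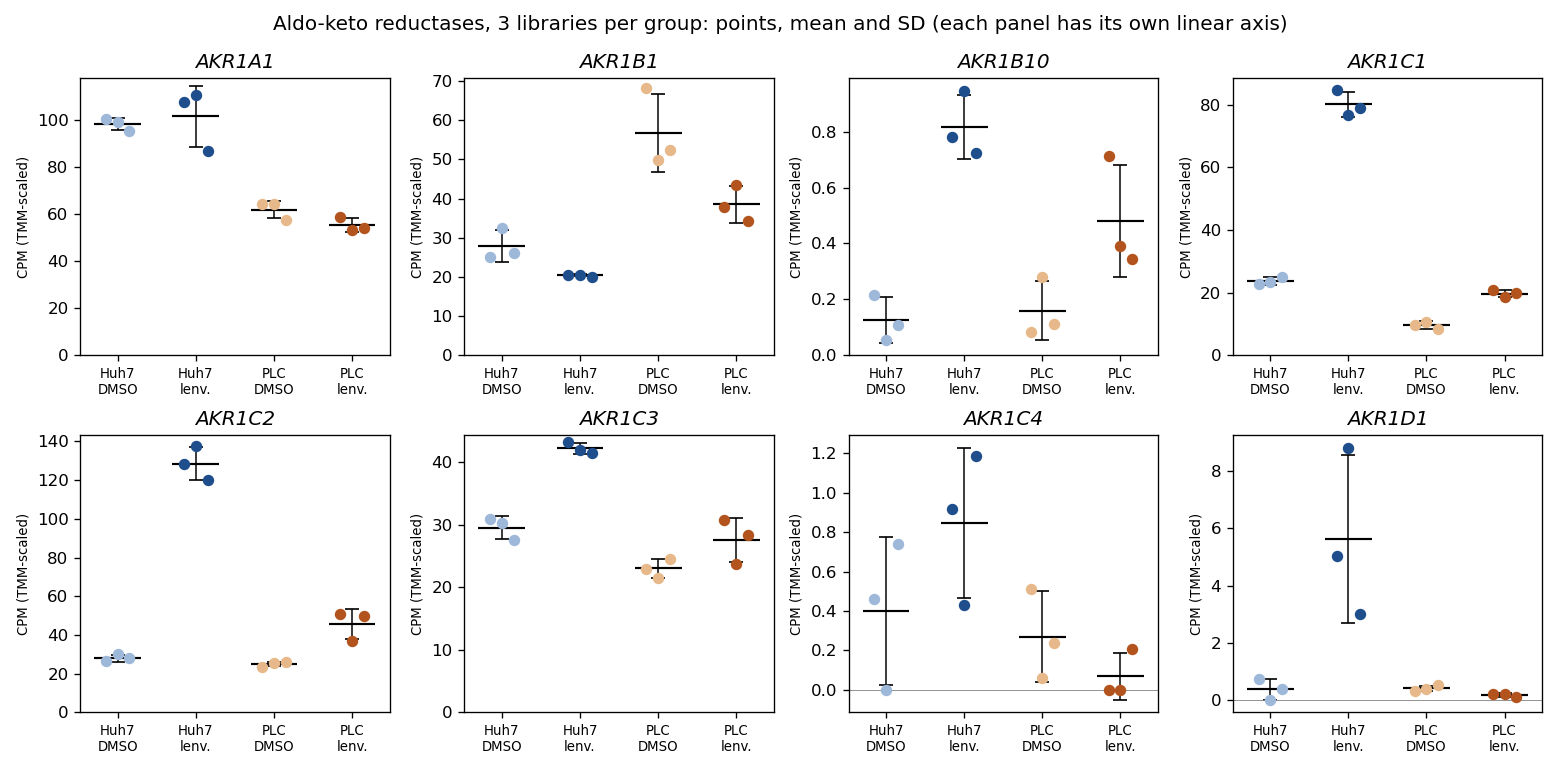
TMM-scaled CPM of the 8 aldo-keto reductases in each library (points), with the mean (long bar) and SD (capped line) of the 3 libraries of each group; each panel has its own linear axis. AKR1C1 and AKR1C2 rose in both lines with no overlap between the groups, and AKR1B1 fell in both.

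The first comparison asks what lenvatinib does to these genes in Huh7. Of the 5 members with a mean FPKM of at least 0.5, AKR1C1, AKR1C2 and AKR1C3 rose and AKR1B1 fell, and AKR1A1 was not called. Calls are an adjusted p under 0.05 in edgeR's quasi-likelihood test over 15587 lines, of which 11.4% were called higher and 13.3% lower. In these bulk cultures a change in the RNA of each cell and a change in which cells are present cannot be told apart.

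AKR1C2, which reduces dihydrotestosterone to a weak androgen, had the largest change of the 5. Its counts in Huh7 were 1825, 2191 and 2078 with DMSO and 9348, 10166 and 8618 with lenvatinib. All lenvatinib libraries stood far above all controls. The level went from 28.1 ± 1.81 to 129 ± 8.66 CPM, a log2 fold change of 2.19 ± 0.12 (SE), or 4.58-fold, with adjusted p = 6.10e-07.

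AKR1C1, which inactivates progesterone and also reduces lipid aldehydes, had 1579, 1717 and 1873 counts with DMSO and 6173, 5691 and 5669 with lenvatinib. The groups did not overlap. Its level went from 23.8 ± 1.19 to 80.2 ± 3.999 CPM, a log2 fold change of 1.75 ± 0.096, or 3.37-fold, with edgeR adjusted p = 6.10e-07.

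AKR1C3 makes testosterone from androstenedione and also forms prostaglandin F. It had 2134, 2213 and 2050 counts with DMSO and 3150, 3104 and 2974 with lenvatinib, again without overlap. The rise was smaller, from 29.5 ± 1.78 to 42.2 ± 0.900 CPM, a log2 fold change of 0.51 ± 0.099, or 1.43-fold, with edgeR adjusted p = 0.00338. Other genes share 23.0% of the 50-base stretches of its coding sequence, and the part of shared reads in this rise was not tested.

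AKR1B1 is aldose reductase, which turns glucose into sorbitol. It had 1728, 2378 and 1953 counts with DMSO and 1499, 1519 and 1442 with lenvatinib, and the lenvatinib libraries lay close together below all controls. The level fell from 27.9 ± 4.06 to 20.4 ± 0.259 CPM, a log2 fold change of -0.45 ± 0.14 with edgeR adjusted p = 0.0378. Replicate 2 with DMSO is the highest control, and without it the log2 fold change was -0.33 with adjusted p = 0.145. The call was also lost without DMSO replicate 3 (0.0584), without lenvatinib replicates 1, 2 or 3 (0.0835, 0.0845 and 0.0861) and without PLC/PRF/5 lenvatinib replicate 1 (0.0510), all as adjusted p.

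AKR1A1, the general aldehyde reductase, had 6944, 7261 and 7094 counts with DMSO and 7839, 8177 and 6217 with lenvatinib, and the groups overlapped. Its log2 fold change was 0.05 ± 0.090 with edgeR adjusted p = 0.769 and a 95% interval from -0.15 to 0.25.

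AKR1B10, AKR1C4 and AKR1D1 were under the FPKM minimum. Their values come from the same test over the 24797 lines that pass edgeR's filterByExpr, a choice made after their counts were seen. In that fit 6.64% of lines were called higher in Huh7. AKR1B10 passes this filter only through libraries with lenvatinib, 6 of 6 against 2 of 6 with DMSO, so that its passing is itself tied to its higher level there.

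AKR1D1 is the reductase that removes a double bond of the steroid ring in bile acid synthesis and in the breakdown of steroid hormones. Its counts in Huh7 were 50, 0 and 28 with DMSO and 367, 652 and 216 with lenvatinib. The lowest lenvatinib library stood above the highest control, and the lenvatinib libraries differed among themselves. The level went from 0.366 ± 0.361 to 5.62 ± 2.94 CPM, a log2 fold change of 3.93 ± 0.98 with edgeR adjusted p = 0.0194. With 1 control library at 0, the fitted size depends on how edgeR treats zeros, and it was 4.87 without DMSO replicate 1 and 3.35 without replicate 2. The call was lost without DMSO replicate 3 (adjusted p = 0.0694), without lenvatinib replicate 2 (0.0661) and when only the groups compared were fitted (0.110). Hepatocyte markers moved too: 6 of 10 were higher and 2 lower in Huh7, where 11.4% of the 15587 lines were higher and 13.3% lower. Their summed level was 5037 to 5186 CPM with DMSO and 6298 to 9730 CPM with lenvatinib. The 2 lower were AFP, from 515 to 377 CPM, and TTR, from 157.5 to 55.0 CPM, so the sum does not stand for all the markers. Their part in the AKR1D1 result was not tested.

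AKR1B10, which reduces retinal and lipid aldehydes and is often raised in liver cancer, had 15, 4 and 8 counts with DMSO and 57, 70 and 52 with lenvatinib. The groups did not overlap, at a low level in both. The level went from 0.126 ± 0.0827 to 0.817 ± 0.115 CPM, a log2 fold change of 2.67 ± 0.71 with edgeR adjusted p = 0.0247. Because the filter admitted the gene through its lenvatinib libraries, that p is given as a description. Over all 38809 lines with a count, where no filter selects it, the log2 fold change was 2.68 with edgeR adjusted p = 0.0459. With the filter it was 3.30 without DMSO replicate 1. The adjusted p was 0.0845 without DMSO replicate 2, 0.0827 without replicate 3, 0.0553 without lenvatinib replicate 1 and 0.0680 without replicate 2.

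AKR1C4, a ketosteroid reductase largely of the liver that acts in bile acid synthesis, had 32, 0 and 55 counts with DMSO and 67, 32 and 85 with lenvatinib. The groups overlapped. Its log2 fold change was 1.07 ± 1.48 with edgeR adjusted p = 0.769, and the 95% interval from -2.18 to 4.32 covers large changes in both directions.

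In PLC/PRF/5, of the 5 members tested, AKR1C1 and AKR1C2 rose, AKR1B1 fell, and AKR1A1 and AKR1C3 were not called, against 9.01% of lines called higher and 11.1% lower. With library totals alone in place of TMM factors, 63.1% of all calls in this line were higher, against 44.8% with TMM, and the median of all lines was 0.07 in place of -0.01 on the log2 scale.

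AKR1C1 had 704, 736 and 604 counts with DMSO and 1553, 1430 and 1445 with lenvatinib. All lenvatinib libraries held more than any control. The level went from 9.69 ± 1.15 to 19.8 ± 1.11 CPM, a log2 fold change of 1.03 ± 0.095, or 2.04-fold, with edgeR adjusted p = 7.88e-05.

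AKR1C2 had 1699, 1736 and 1843 counts with DMSO and 3778, 2815 and 3616 with lenvatinib. Lenvatinib replicate 2 was the lowest of its group and still above the controls. The level went from 24.99 ± 1.26 to 45.7 ± 7.81 CPM, a log2 fold change of 0.87 ± 0.12, or 1.83-fold, with edgeR adjusted p = 6.26e-04.

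AKR1C3 had 1655, 1467 and 1747 counts with DMSO and 2286, 1824 and 2065 with lenvatinib. In CPM, lenvatinib replicate 2 lay within the range of the controls. The log2 fold change was 0.26 ± 0.10 with edgeR adjusted p = 0.0926, and without that library it was 0.36 with adjusted p = 0.0252. It was also called with library totals alone (adjusted p = 0.0365).

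AKR1B1 had 4919, 3390 and 3711 counts with DMSO and 2811, 3340 and 2503 with lenvatinib. The groups did not overlap. The level fell from 56.7 ± 10.02 to 38.5 ± 4.65 CPM, a log2 fold change of -0.56 ± 0.14 with edgeR adjusted p = 0.0180. The adjusted p was 0.0647 without DMSO replicate 1, the highest control, 0.0558 without lenvatinib replicate 1 and 0.0691 without lenvatinib replicate 3.

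AKR1A1 had 4630, 4370 and 4090 counts with DMSO and 4389, 4093 and 3940 with lenvatinib, and the groups overlapped. Its log2 fold change was -0.16 ± 0.090 with edgeR adjusted p = 0.250 and a 95% interval from -0.36 to 0.04. The low members were not called in PLC/PRF/5. AKR1B10 had 6, 19 and 8 counts with DMSO and 53, 30 and 25 with lenvatinib, which do not overlap, with a log2 fold change of 1.598 ± 0.68 and edgeR adjusted p = 0.176. AKR1D1 had 23, 25 and 36 counts with DMSO and 15, 16 and 6 with lenvatinib, all below the controls (log2 fold change -1.27 ± 0.96, edgeR adjusted p = 0.4995). AKR1C4 had 37, 4 and 17 counts with DMSO and 0, 0 and 15 with lenvatinib (log2 fold change -1.97 ± 1.598, edgeR adjusted p = 0.537).

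**Figure D3:**
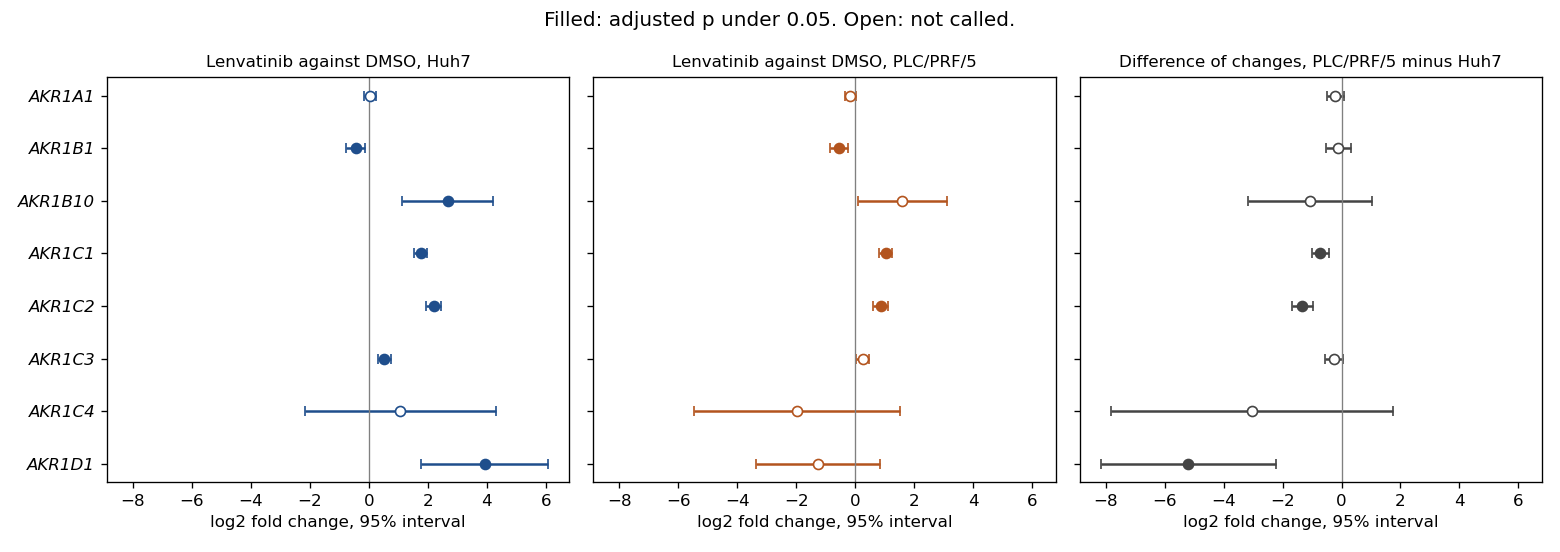
Log2 fold change with its 95% interval for each aldo-keto reductase with lenvatinib in Huh7 and in PLC/PRF/5, and the difference of the 2 changes; filled points have an adjusted p under 0.05. AKR1C1 and AKR1C2 lie to the right of 0 in both lines and to the left in the difference, and AKR1C4 has the widest intervals.

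The difference of the changes, PLC/PRF/5 minus Huh7, asks whether the lines responded unequally. AKR1C1 and AKR1C2 rose less in PLC/PRF/5 than in Huh7, 2 of the 5 members tested, where 6.9% of all lines were lower and 7.49% higher. For AKR1C2 the difference was -1.33 ± 0.16 on the log2 scale with edgeR adjusted p = 4.20e-04. For AKR1C1 it was -0.72 ± 0.13 with edgeR adjusted p = 0.00451. AKR1C3 differed by -0.25 ± 0.14 with edgeR adjusted p = 0.275 and an interval from -0.56 to 0.06. The falls of AKR1B1 differed by -0.11 ± 0.20, with an interval from -0.54 to 0.33.

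AKR1D1 differed by -5.20 ± 1.35 with edgeR adjusted p = 0.0379, among the filterByExpr lines, of which 3.8% were lower. This call was lost in 11 of 22 other settings, in 9 of them by leaving out 1 library. Those libraries were Huh7 DMSO replicate 3, Huh7 lenvatinib replicates 1 and 2, and each of the 6 PLC/PRF/5 libraries, with adjusted p from 0.0608 to 0.0912. Hepatocyte markers in PLC/PRF/5 summed to 6804 to 7372 CPM with DMSO and 4793 to 5039 CPM with lenvatinib. Of these markers 1 of 10 was higher and 2 lower, where 9.01% of the 15587 lines were higher and 11.1% lower. The 2 lower were the abundant APOB, from 4996 to 3197 CPM, and FGB, from 1020 to 440 CPM. The 1 higher was ALB, from 7.53 to 10.8 CPM, so the sum does not stand for the markers in general. The part of these markers in this difference was not tested. AKR1B10 differed by -1.08 ± 0.96 with edgeR adjusted p = 0.610, so that its change is not shown to differ between the lines.

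The sum over AKR1C1 to AKR1C4 does not depend on how counted reads were split among them. It would lack any read left out for matching several, and would hold more than once any read counted for several. In Huh7 this sum went from 81.8 ± 1.70 to 252 ± 8.71 CPM, a log2 fold change of 1.62 ± 0.083 with edgeR adjusted p = 3.84e-07. In PLC/PRF/5 it went from 58.0 ± 1.25 to 93.1 ± 12.3 CPM, a log2 fold change of 0.68 ± 0.082 with edgeR adjusted p = 3.76e-04. The sum rose less in PLC/PRF/5, by -0.94 ± 0.12 on the log2 scale with edgeR adjusted p = 4.18e-04.

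The mix of the 4 genes shifted as well. In Huh7 AKR1C2 made up 32.8%, 35.8% and 34.3% of the summed counts with DMSO and 49.9%, 53.5% and 49.7% with lenvatinib. AKR1C3 went the other way, from 36.1 ± 2.23% to 16.8 ± 0.403%, while AKR1C1 was at 29.1 ± 1.58% and 31.9 ± 1.65%. In PLC/PRF/5 the share of AKR1C2 was 43.1 ± 1.40% with DMSO and 48.9 ± 2.22% with lenvatinib, and that of AKR1C3 39.7 ± 2.23% and 29.7 ± 0.644%. AKR1C4 stayed under 1% of the sum in every library. These shares are given without a test, and reads common to the genes enter them.

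**Figure D4:**
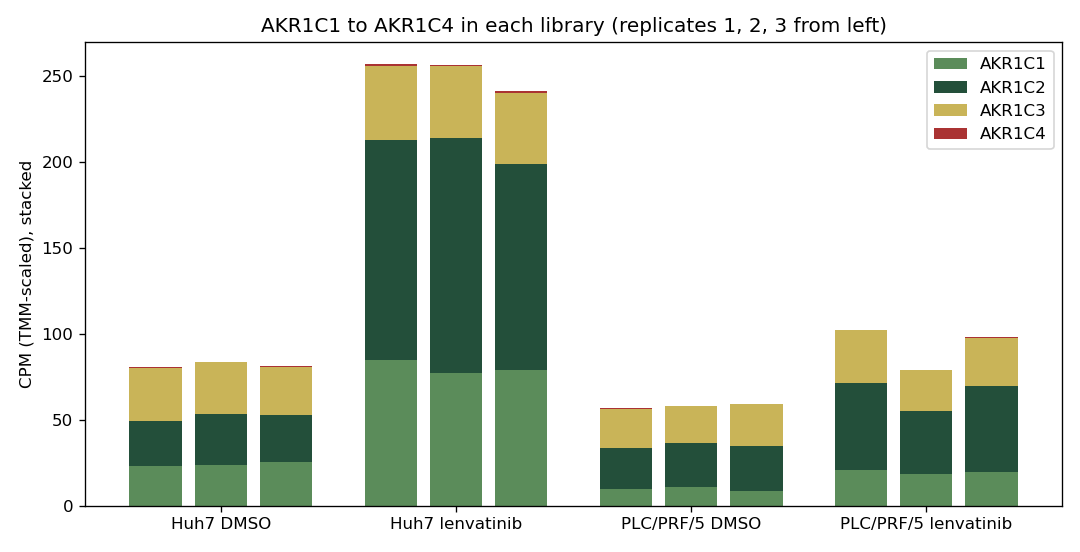
Stacked TMM-scaled CPM of AKR1C1 to AKR1C4 in each of the 12 libraries, replicates 1 to 3 from left in each group. The Huh7 lenvatinib bars reach 241.7 to 256.9 CPM against 80.5 to 83.7 CPM with DMSO, and AKR1C2 is the largest segment of each Huh7 lenvatinib bar.

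Without lenvatinib the lines differed in several members. Under DMSO, PLC/PRF/5 held more AKR1B1 than Huh7, with a log2 fold change of 1.02 ± 0.14 and edgeR adjusted p = 6.10e-05. It held less AKR1C1 (-1.298 ± 0.095, edgeR adjusted p = 3.80e-07), less AKR1A1 (-0.67 ± 0.091, edgeR adjusted p = 5.49e-05) and less AKR1C3 (-0.36 ± 0.10, edgeR adjusted p = 0.00774). AKR1C2 differed by -0.17 ± 0.12 with edgeR adjusted p = 0.221, although its CPM did not overlap between the lines, and the 3 low members overlapped. Calls were common here: 33.9% of all lines were higher in PLC/PRF/5 and 33.1% lower, so that 4 of 5 members is near the share of all lines. The sum of AKR1C1 to AKR1C4 was lower in PLC/PRF/5 by -0.50 ± 0.082 on the log2 scale with edgeR adjusted p = 2.35e-04.

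Genes around these enzymes were followed in 10 lists of 148 genes, each beside a median of 0.0018 for all lines in Huh7 and -0.0075 in PLC/PRF/5 on the log2 scale. Their counts are to be read against the shares of all lines, 11.4% higher and 13.3% lower in Huh7 and 9.01% higher and 11.1% lower in PLC/PRF/5. Among other NRF2 targets, 17 of 21 tested genes rose and 1 fell in Huh7, with a median log2 fold change of 0.83. In PLC/PRF/5, 12 rose and 3 fell, with a median of 0.44. HMOX1, which breaks down heme, rose in both lines (1.37 ± 0.095 and 1.24 ± 0.093, adjusted p = 3.56e-06 and 2.35e-05). GCLM, a subunit of the enzyme that starts glutathione synthesis, did too (0.95 ± 0.096 and 1.01 ± 0.095). FTH1, the ferritin heavy chain, rose by 0.83 ± 0.048 and 0.46 ± 0.047. ABCC2, an export pump for conjugates, rose in Huh7 (1.32 ± 0.064) and was at 0.15 ± 0.063 in PLC/PRF/5 with adjusted p = 0.123. Its difference between the lines was -1.17 ± 0.089, edgeR adjusted p = 2.15e-05.

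Among the genes that control NRF2, 3 of 10 rose and 3 fell in Huh7, and 1 rose and 3 fell in PLC/PRF/5. NFE2L2, which encodes NRF2, was at 0.22 ± 0.35 in Huh7 and 0.00 ± 0.35 in PLC/PRF/5, and was called in neither line (edgeR adjusted p = 0.718 and 1.0). KEAP1 rose in both (0.44 ± 0.085 and 0.41 ± 0.085). BACH1, a repressor at the same elements, rose in Huh7 (0.40 ± 0.11) and was at 0.32 ± 0.11 in PLC/PRF/5 with adjusted p = 0.0695. SQSTM1, the autophagy receptor p62 that binds KEAP1, rose in Huh7 (1.39 ± 0.044) and fell in PLC/PRF/5 (-0.16 ± 0.043, adjusted p = 0.0249). CUL3, the ubiquitin ligase scaffold that works with KEAP1, fell in both (-0.29 ± 0.046 and -0.26 ± 0.046).

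The enzymes that supply NADPH rose in 6 of 11 cases in each line, with 1 fall in Huh7 and 0 in PLC/PRF/5. PGD of the pentose phosphate pathway rose in both (0.66 ± 0.048 and 0.44 ± 0.047), as did H6PD of the endoplasmic reticulum (0.71 ± 0.071 and 0.47 ± 0.070). Malic enzyme ME1 was at -0.08 ± 0.067 in Huh7, adjusted p = 0.423, and rose in PLC/PRF/5 (0.62 ± 0.067).

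Aldehyde and alcohol dehydrogenases, which oxidise what the reductases reduce, rose in 5 of 11 cases in Huh7 and 3 in PLC/PRF/5, with 0 falls. ALDH1A1, which oxidises retinal, rose in Huh7 from 1115 ± 19.7 to 2202 ± 399 CPM (0.98 ± 0.10) and was at -0.26 ± 0.10 in PLC/PRF/5 with adjusted p = 0.104. ALDH2, the mitochondrial enzyme that oxidises acetaldehyde, rose in both (0.39 ± 0.092 and 0.71 ± 0.092). Of 14 other carbonyl and aldehyde reductases, 2 rose and 1 fell in Huh7, and 2 rose and 2 fell in PLC/PRF/5. PTGR1, which reduces lipid aldehydes, rose in both (0.67 ± 0.12 and 1.298 ± 0.13).

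In steroid and prostaglandin metabolism 8 of 17 tested genes rose and 4 fell in Huh7, and 2 rose and 2 fell in PLC/PRF/5. SRD5A1, a steroid reductase upstream of AKR1C2, rose in both (0.34 ± 0.080 and 0.71 ± 0.081). HSD17B12 fell in Huh7 (-1.08 ± 0.091) and was at -0.10 ± 0.090 in PLC/PRF/5. PTGS2, the inducible cyclooxygenase, fell in PLC/PRF/5 from 23.4 ± 2.78 to 2.9996 ± 0.357 CPM. Of 10 tested bile acid genes 2 rose and 1 fell in Huh7, and 1 rose in PLC/PRF/5, near the shares of all lines. HSD3B7, which acts before AKR1D1 in that pathway, rose in Huh7 (0.78 ± 0.19, adjusted p = 0.0125) and was at -0.01 ± 0.19 in PLC/PRF/5.

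In the polyol and methylglyoxal list, around AKR1B1, 2 of 8 rose and 2 fell in Huh7, and 2 rose and 1 fell in PLC/PRF/5. SORD, which takes the sorbitol made by AKR1B1 on to fructose, rose in Huh7 (1.19 ± 0.25, adjusted p = 0.00546) and was at 0.08 ± 0.24 in PLC/PRF/5. Hexokinase HK2, which competes for glucose, fell in both (-1.71 ± 0.12 and -0.91 ± 0.12). Of 6 genes of retinal reduction and storage, 1 rose in each line, again near those shares. Of 8 further members of the superfamily 2 were tested. AKR7A2, which reduces succinic semialdehyde, was at -0.21 ± 0.12 in Huh7 with adjusted p = 0.269 and rose in PLC/PRF/5 (0.40 ± 0.12, adjusted p = 0.0431). AKR1B15 and AKR1E2 had 0 counts in all 12 libraries. No upper limit is drawn from this, since a count may not be 1 read and AKR1B15 shares stretches with AKR1B10.

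**Figure D5:**
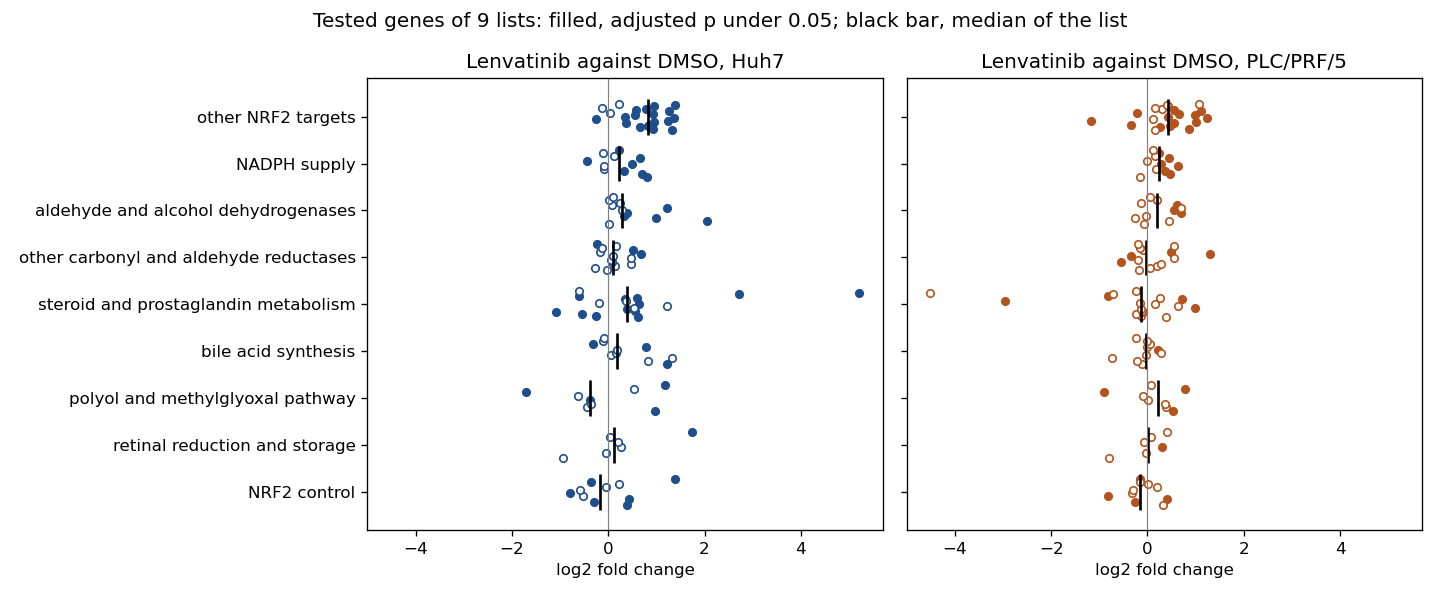
Log2 fold change with lenvatinib of the tested genes of 9 lists around the aldo-keto reductases, in Huh7 (left) and PLC/PRF/5 (right); filled points have an adjusted p under 0.05 and black bars are list medians. Other NRF2 targets have the highest median in both lines, 0.83 and 0.44.

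The genes whose pattern was most like that of each called member were sought among 7095 genes whose mean FPKM reached 5, by Pearson correlation over the 12 libraries after each line's mean was subtracted. The libraries share the treatment groups, so the values are a description. For AKR1C1 these were ATF4 (r = 0.994), FTH1 (0.989) and SREBF2 (0.988). For AKR1C2 they were FBXW2 (0.988), APOE (0.987) and SEPHS2 (0.986), and for AKR1C3 TRIM26 (0.963), SRPK2 and FUBP3 (both 0.951). For AKR1D1 they were ACADSB (0.983), AGT (0.978) and SERPINF2 (0.974), which had log2 fold changes of 1.15, 1.55 and 2.40 in Huh7 and -0.12, -0.04 and -0.14 in PLC/PRF/5. For AKR1B10 they were RAB11FIP1, LAMP2 and LHFPL2 (0.957, 0.956 and 0.955), and for AKR1B1 CIC (0.953), CCAR2 (0.942) and TMEM205 (0.937).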

How the data were processed

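For every library the authors deposited whole-number counts and FPKM per gene line in 1 table. Another 12 columns of per-sample values, which match no sample here, were not used. Per the labels, random-primed cDNA was read as single ends on a BGISEQ instrument. HISAT2 and hg19 are named in the submitters' processing notes, whereas the sources used here name no HISAT2 version, counting program, annotation or strand setting. The deposited counts were tested with edgeR 4.0.16 (quasi-likelihood F test, robust, TMM factors, 1 coefficient for each of the 4 groups) on the 15587 lines with a mean FPKM of at least 0.5, p-values being adjusted by Benjamini-Hochberg over all of them and called under 0.05. Each SE is the size of the log2 change divided by the root of its F value, and the common biological coefficient of variation was 0.234. AKR1B10, AKR1C4 and AKR1D1 were tested among the 24797 lines that pass filterByExpr. The members and lists were chosen with earlier results of these data known. Named genes are the 8 members, NFE2L2, KEAP1, BACH1, genes among the up to 3 of smallest adjusted p per list and line whose mean FPKM reached 1, and the 3 most similar genes per called member. The test was checked on simulated data with the files' own dispersions for signs, false calls and bias; a first requirement on the number of changed genes found was dropped after it was not met. No 2 libraries of a group were duplicates. Sequences are from GENCODE 29 and RefSeq. DHRS9, CYP7A1, HSD3B1, HSD11B1 and MS4A1 were not analysed here. Alternatives included DESeq2 1.42.0 and limma 3.58.1 on log2 FPKM. R 4.3.3, Python, Biopython and matplotlib were used.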

Additional observations from a re-analysis of the deposited data

Results flagged for a closer look

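The change with lenvatinib differed between the lines, by a test of the difference itself, for AKR1C1 and AKR1C2 among the 5 members tested. Of all 15587 lines in that test, 6.9% were called lower and 7.49% higher. The difference was also called for AKR1D1 among the 24797 filterByExpr lines, a choice made after its counts were seen. Of those lines 3.8% were called lower. Written as PLC/PRF/5 minus Huh7 on the log2 scale, the difference was -0.72 for AKR1C1 and -1.33 for AKR1C2, and both calls held under every alternative setting in which the gene had a line of its own. It was -5.20 for AKR1D1, a gene with 0 to 50 counts in the libraries other than Huh7 with lenvatinib, and 11 of 22 other settings lost that call. With 3 libraries per group no single library was examined as an outlier.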

How the results depend on the processing

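Up to 24 other settings were run, 12 of them leaving out 1 library, and up to 23 for the difference between lines, which has no fit to only the groups compared. They gave 724 other values for the members. Of these, 681 kept direction and side of the threshold, 31 lost a call, 4 gained one and 8 changed sign, all 8 in values that were not called. The rises of AKR1C1 and AKR1C2 in both lines and that of AKR1C3 in Huh7 were called under every setting that kept the gene apart. Those settings all start from the deposited values, so they do not bear on how shared reads were split among these genes. With AKR1C1 to AKR1C4 summed, the members called numbered 2 in Huh7 (4 as reported) and 1 for the difference between lines (2 as reported), and with AKR1C1 and AKR1C2 summed 1 for the difference, since fewer lines were left to call. With filterByExpr or no filter 6 were called in Huh7, and with filterByExpr 3 for the difference, since the low members then enter. All lines called in Huh7 were 3664 of 24797 with filterByExpr and 3322 of 38809 with no filter. For the difference, filterByExpr gave 2031 of 24797. Its count in Huh7 includes AKR1B10, which that filter admitted through its lenvatinib libraries. Leaving out libraries gave 3 to 4 members called in Huh7, 2 to 4 in PLC/PRF/5, 2 for the difference and 4 between the lines. Of all 15587 lines, 2994 to 3859 were then called in Huh7 and 2225 to 3283 in PLC/PRF/5. For the difference these were 1782 to 2307, and between the lines 9871 to 10494. The sign changes were those of AKR1A1 in Huh7 (-0.017 to 0.15), the AKR1B1 difference (-0.23 to 0.049), and AKR1B10 (-0.35 to 0.95), AKR1D1 (-0.46 to 1.07) and AKR1C4 (-1.41 to 0.24) between lines under DMSO. Whether replicate numbers pair the libraries cannot be settled with 3 libraries per group. Correlations of same-numbered deviations, within and between lines, ran from -0.0425 to 0.0679. Of 12 libraries, 6 correlated best with their own number among the 3 of the other group of their line. With the replicate block, 3 members were called in Huh7, 3 in PLC/PRF/5, 2 for the difference and 4 between the lines. Of all 15587 lines, 3187, 2359, 1647 and 10287 were called in these comparisons. The block ended the calls of AKR1B1 (edgeR adjusted p = 0.0709) and AKR1D1 (0.0996) in Huh7 and of the AKR1D1 difference (0.150). AKR1B10 in Huh7, whose p is a description, was at 0.0741. Between the lines under DMSO, AKR1C4 then had a log2 fold change of 0.081 and was not called. On log2(FPKM + 1), fold changes of low genes are understated: AKR1C1 in PLC/PRF/5 was at 0.64. There AKR1B1 in Huh7 was not called (adjusted p = 0.0526) and AKR1C3 in PLC/PRF/5 was (0.0317, and 0.0331 on log2(FPKM + 0.1)). With library totals alone, 61.8% of calls for the difference were higher against 52% with TMM. With no filter the AKR1D1 difference was not called (adjusted p = 0.0607), 38809 lines were tested and 12479 called between the lines, against 10431. Counts of low members limit what could be seen: AKR1C4 and AKR1B10 held under 100 counts in every library.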
